A study of Mus musculus with 8 samples.

Results

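The BCL2 family decides whether the outer mitochondrial membrane is breached during apoptosis, and 7 of its genes are described here across 4 groups of mouse embryonic fibroblasts. They are the guardians Bcl2, Bcl2l1, Bcl2l2 and Mcl1, whose proteins hold death in check, and the effectors Bax, Bak1 and Bok, whose proteins act at mitochondrial membranes to promote death. They were chosen by name, and each name matched 1 row of 39175 in each of 2 deposited tables. All 7 were tested by the authors in both tables, so none was lost to a filter on low values.

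The fibroblasts were of the C57BL/6J strain and came either from p53-/- mice (p53KO) or from p53-/-Cry1-/-Cry2-/- mice (p53CryKO). Every group therefore carried the p53 deletion, including the untreated controls, and no group with intact p53 was compared. The cryptochromes, products of Cry1 and Cry2, are repressors of the circadian clock, and p53 is a tumour suppressor that acts in the response to DNA damage. Cells were left untreated or exposed to 40 J/m2 from a germicidal lamp emitting mainly at 254 nm, and irradiated cells were harvested 16 h later. Each group had 2 biological replicates, 8 samples in all. The labels do not say whether the replicates came from separate animals, so the authors' p-values measure the spread between these cultures.

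Guardian proteins bind and restrain both the effectors and the BH3-only proteins, the family branch that senses damage. When that restraint is lost, BAX and BAK assemble into pores in the outer membrane, cytochrome c leaves the mitochondrion and caspases are activated. BOK is an effector relative that is found largely at the endoplasmic reticulum and is less dependent on the guardians. MCL1 is a short-lived protein made from a short-lived message, while BCL-XL, the main product of Bcl2l1, is long-lived. BAX is a classical transcriptional target of p53, which these cells lack.

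Transcript levels are FPKM (fragments per length of transcript and per library size, as the authors scaled it). There is 1 value per gene and group, which the authors pooled over replicates. The replicates' own values are thus not known, no SD exists, and the number of fragments behind each value is unknown. A transcript is called higher or lower after UV where q was 0.05 or less in the authors' deposited table. Dividing a log2 fold change by the authors' test statistic gave its implied SE. The authors' p is not the normal p of that statistic. For Mcl1 in p53KO cells the statistic was -1.49, with p = 0.0344 in the authors' Cuffdiff test. Read as a normal z, the statistic called fewer genes than the authors' q, as given further on. Errors, intervals and tests built on the implied SE may therefore be too wide or too strict. The smallest p of the authors' test was 5e-05, so genes at that value cannot be ranked by it. Fewer transcripts per cell and fewer living cells of a kind cannot be told apart in such bulk RNA.

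Some facts of the whole series bear on the 7 genes. Of 11 fibroblast marker genes, 10 were present in every group and Lum was at 0.0502 FPKM or below throughout. The 10 did not move together: Vim went from 1238 to 2502 FPKM after UV in p53KO and 2256 to 4558 in p53CryKO cells, Col1a1 from 477 to 229 and 285 to 139, and Pdgfra from 17.7 to 5.66 and 3.26 to 1.27. The 4 epithelial markers (Epcam, Cdh1, Krt8, Krt18) summed to 0.276 FPKM in untreated p53KO and 6.72 in untreated p53CryKO cells, and to 0.325 and 11.1 after UV. The 3 endothelial markers (Pecam1, Cdh5, Kdr) summed to between 0.642 and 1.43 FPKM. Among 4 immune markers (Ptprc, Cd68, Cd3e, Itgam), the macrophage and lysosome gene Cd68 was higher after UV in both genotypes (2.41 to 12.5 and 2.82 to 11.3 FPKM), while Cd3e was listed at 0 and the pan-leukocyte gene Ptprc was at 0.00479 FPKM or below. The part of these marker differences in the results that follow was not tested. Transcripts of the deleted genes were still counted, with Trp53 at 78.8 FPKM in untreated p53KO and 84.4 in untreated p53CryKO cells, Cry1 at 3.85 and 3.34, and Cry2 at 2.44 and 4.54. The authors' test of Trp53 in p53CryKO cells is marked as failed, so its value there is less certain. A single value for a whole gene cannot tell a deleted exon from a present one, so the genotype labels are unchecked here.

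The start regions of 4 genes are shown first: Bax and Bok, which were called higher after UV in both genotypes on the authors' scaling (but not on 2 other scalings given further on), and Bcl2l1 and Bak1, which were called lower on all of them. Each runs 5′ to 3′ from 250 bases before to 50 bases after the annotated start (RefSeq, GRCm38.p6). Capitals mark matches on either strand to the E-box CACGTG, the core of CLOCK and BMAL1 binding on which the cryptochromes act, to the GC box GGGCGG, to the ETS core CGGAAG or to the CRE core TGACGT. No capitals of different motifs overlap.
Bax, chr7:45466849-45467148, minus strand: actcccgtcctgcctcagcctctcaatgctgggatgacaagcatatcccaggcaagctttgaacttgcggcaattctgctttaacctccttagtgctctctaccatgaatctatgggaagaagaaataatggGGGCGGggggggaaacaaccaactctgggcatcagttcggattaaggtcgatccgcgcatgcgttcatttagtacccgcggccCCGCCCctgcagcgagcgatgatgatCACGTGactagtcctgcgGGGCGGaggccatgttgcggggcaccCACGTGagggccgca
Bok, chr1:93685325-93685624, plus strand: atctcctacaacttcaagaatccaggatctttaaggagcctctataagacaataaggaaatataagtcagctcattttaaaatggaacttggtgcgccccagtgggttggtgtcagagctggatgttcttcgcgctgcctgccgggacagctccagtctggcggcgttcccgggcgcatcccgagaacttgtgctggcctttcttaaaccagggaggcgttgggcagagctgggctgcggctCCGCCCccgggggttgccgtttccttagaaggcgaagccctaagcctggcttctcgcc
Bcl2l1, chr2:152831679-152831978, minus strand: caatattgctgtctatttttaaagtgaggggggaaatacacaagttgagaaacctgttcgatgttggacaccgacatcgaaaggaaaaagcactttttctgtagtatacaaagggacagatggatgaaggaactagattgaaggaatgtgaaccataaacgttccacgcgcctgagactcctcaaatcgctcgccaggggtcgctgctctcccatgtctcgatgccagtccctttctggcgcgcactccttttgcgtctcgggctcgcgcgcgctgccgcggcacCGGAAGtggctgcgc
Bak1, chr17:27028578-27028877, minus strand: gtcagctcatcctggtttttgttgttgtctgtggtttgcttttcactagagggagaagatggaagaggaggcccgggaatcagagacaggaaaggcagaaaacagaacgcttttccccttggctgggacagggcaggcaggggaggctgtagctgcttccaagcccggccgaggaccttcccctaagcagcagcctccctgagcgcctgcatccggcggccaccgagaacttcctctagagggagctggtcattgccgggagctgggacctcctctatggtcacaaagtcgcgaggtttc

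The Bax window holds 2 E-boxes, which begin 9 bases before and 35 bases after the start, and 3 GC boxes. No E-box lies in the windows of the other 6 genes. Of 32851 mouse windows of this length, 7.15% hold an E-box, 35.7% a GC box, 16.9% the ETS core and 7.51% the CRE core. Bok has 1 GC box, Bcl2l1 has 1 ETS core and no GC box, and Bak1 has none of the 4 motifs. Among genes not printed, Bcl2 has 7 GC boxes and 1 CRE core, Mcl1 has 2 ETS cores and 1 GC box, and Bcl2l2 has 1 GC box. Bcl2l1 has 3 annotated windows and the one nearest its GENCODE start is shown, while the RefSeq start of Bak1 lies 382 bases from its GENCODE start. These matches describe letters in a window and are not evidence of binding.

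In untreated cells the effector Bax was the most abundant of the 7 transcripts and the guardian Bcl2 the least. Bax stood at 85.2 FPKM in p53KO and 79.2 in p53CryKO cells, above 92.1% and 91.4% of expressed genes (those tested that reached 1 FPKM before or after UV). Bak1 came next at 45.6 and 70.8 FPKM. Bcl2l1 and Mcl1 were close together, at 38.0 and 36.5 FPKM in p53KO and 39.9 and 42.8 in p53CryKO cells. Their order differed between the genotypes, and with no value per replicate no neighbours in these orders can be tested. Bok followed at 17.1 and 31.4 FPKM and Bcl2l2 at 7.51 and 6.81. Bcl2 stood at 1.05 and 1.52 FPKM, above 7.46% and 12.5% of expressed genes.

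Guardian transcript in untreated fibroblasts was therefore mostly Bcl2l1 and Mcl1. They made up 45.7% and 44.0% of the summed guardian FPKM in p53KO and 43.9% and 47.0% in p53CryKO cells, while Bcl2 made up 1.26% and 1.67%. After UV, Mcl1 alone made up 62.4% and 58.0%, and Bcl2l1 was down to 15.1% and 21.2%. The effector sum shifted in makeup as well. Bax went from 57.6% to 72.7% of it in p53KO cells and from 43.7% to 65.7% in p53CryKO fibroblasts, and Bak1 from 30.8% to 5.71% and from 39.0% to 12.3%. Bok stood below Bak1 before UV and above it after UV in both genotypes, at rank 2 of the 7.

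**Figure D1:**
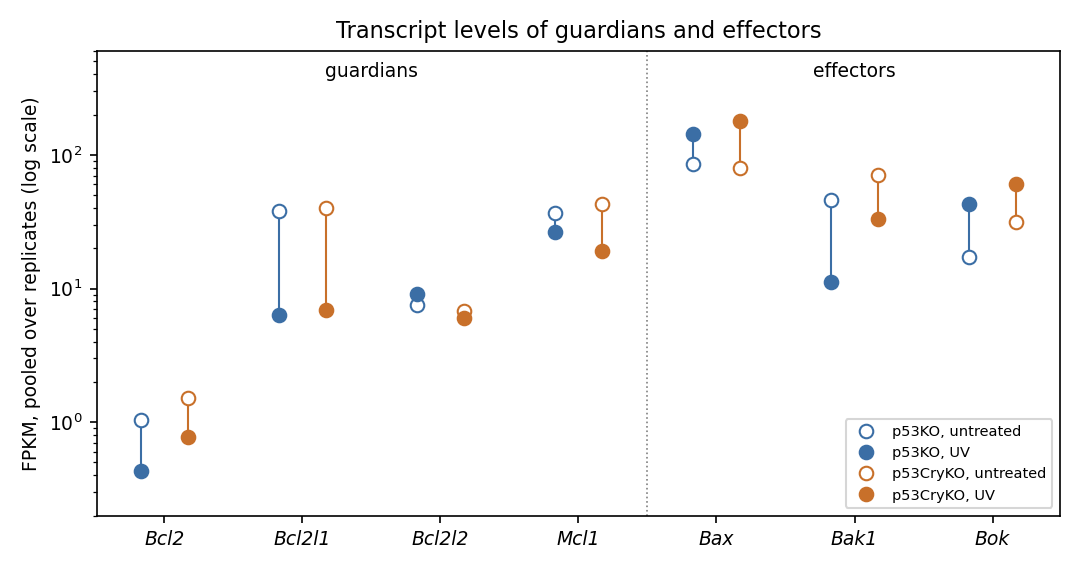
FPKM of the 4 guardian and 3 effector genes on a log axis, pooled over 2 replicates by the authors; open circles are untreated and filled circles UV-treated cells, blue p53KO and orange p53CryKO. Bcl2l1 drops from 38.0 to 6.38 FPKM in p53KO cells and from 39.9 to 6.93 in p53CryKO fibroblasts, while Bax is at 143 and 179 after UV on the authors' scaling, and its change in p53KO cells turns to -0.26 (log2) at equal coding FPKM.

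The first question was how these transcripts responded to UV. In p53KO cells 2 of the 7 genes were higher and 3 lower, and in p53CryKO cells 2 were higher and 4 lower. The background was wide: 50.9% of all tested genes were called in the p53KO table (23.9% higher, 26.9% lower) and 52.3% in the p53CryKO table (25.1% higher, 27.2% lower). The members' counts are therefore no result in themselves. The median log2 fold change of the 7 was -0.47 in p53KO and -0.96 in p53CryKO cells, beside 0.10 and 0.09 over all tested genes. The direction of the rises depends on the scale. Equal summed FPKM of protein-coding genes lowers every log2 fold change by 1.01 in p53KO and 1.02 in p53CryKO cells. Equal total fragments lowers it by 0.78 and 0.79. That total is an estimate, the sum over annotated genes of FPKM times summed exon length. Calls on these scales, and those by length further on, used a normal z from the implied SE with a new q, not the authors' q. With no shift, that z called 16.9% of all tested genes higher and 20.2% lower in the p53KO table. In the p53CryKO table it called 17.8% and 21.0%, and no member's call changed. On the coding scale 0 of the 7 were higher and 4 lower in each genotype. There the share of all tested genes was 3.60% higher against 41.7% lower in the p53KO table and 3.28% against 45.0% in the p53CryKO table. Every rise or fall is thus relative to the authors' scaling, on which the median expressed gene had 0.05 in each genotype.

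Bcl2l1 fell most among the guardians. It encodes BCL-XL and, by alternative splicing, the proapoptotic BCL-XS, and a value over the whole gene does not separate them. The gene (ENSMUSG00000007659) lies on chromosome 2, 152780668 to 152831728 of GRCm38, on the minus strand, with no other annotated gene inside its span. Its FPKM went from 38.0 to 6.38 in p53KO cells, 5.95-fold lower, and from 39.9 to 6.93 in p53CryKO cells, 5.77-fold lower. The log2 fold changes were -2.57 (implied SE 0.34, q = 0.000169) and -2.53 (implied SE 0.27, q = 0.000161) in the authors' deposited table. In each genotype the change lay in the lowest 4% of expressed genes, since only 3.18% and 3.53% fell further. On the coding scale it was -3.58 and -3.55.

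Mcl1, the guardian with a short-lived message, kept more of its level than Bcl2l1 did. The gene (ENSMUSG00000038612, chromosome 3, 95658788 to 95663176, plus strand) went from 36.5 to 26.4 FPKM in p53KO cells, a log2 fold change of -0.47 (implied SE 0.31) that missed the threshold at q = 0.0651 in the authors' deposited table. In p53CryKO cells it fell from 42.8 to 18.9 FPKM, 2.26-fold (-1.18, implied SE 0.29), with q = 0.000161 in the authors' deposited table. On the coding and fragment scales it was also lower in p53KO cells, at -1.48 and -1.25. Mcl1 was the most abundant guardian after UV in both genotypes.

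Bcl2, the founding member of the family, fell from a low level. It spans 176 kb of chromosome 1 (ENSMUSG00000057329, 106538178 to 106714274, minus strand), the longest of the 7 spans, and 3 annotated genes overlap it, 1 of them antisense. Its FPKM went from 1.05 to 0.434 in p53KO cells (-1.27, implied SE 0.34) and from 1.52 to 0.781 in p53CryKO cells (-0.96, implied SE 0.29). Both falls passed, with q = 0.000169 and 0.000161 in the authors' deposited table. With a pseudocount of 1 FPKM the log2 fold changes shrink to -0.51 and -0.50, since the level is near that pseudocount.

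Bcl2l2, which encodes BCL-W, did not pass in either genotype. It went from 7.51 to 9.09 FPKM in p53KO cells (0.28, implied SE 0.71, q = 0.576 in the authors' deposited table) and from 6.81 to 6.00 in p53CryKO cells (-0.18, implied SE 0.66, q = 0.733 in the authors' deposited table). Its implied SE was the widest of the 7, and its direction was not stable: the value in p53KO cells turned to -0.73 on the coding scale and -0.51 on the fragment scale. On chromosome 14 (ENSMUSG00000089682, 54883377 to 54888234, plus strand) it shares exons with Gm20521, a gene model that runs on into Pabpn1 and stood at 0.126 to 0.387 FPKM, and the tables place it in 1 locus with Pabpn1. Pabpn1, a poly(A) binding protein gene, went from 110 to 87.2 FPKM in p53KO cells and was at 140 and 137 in p53CryKO cells, far above Bcl2l2, so how fragments were divided at this locus is uncertain.

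On the authors' scaling Bax was higher after UV in these cells without p53, and at equal coding FPKM (-0.26) and equal fragments (-0.035) the direction turned in p53KO cells. The gene (ENSMUSG00000003873) lies on chromosome 7, 45461697 to 45466898, on the minus strand, and shares exon sequence with the longer gene model Gm45808, which was not analysed here. Its FPKM went from 85.2 to 143 in p53KO cells, 1.68-fold (0.75, implied SE 0.28, q = 0.00062 in the authors' deposited table). In p53CryKO cells it went from 79.2 to 179, 2.25-fold (1.17, implied SE 0.25, q = 0.000161 in the authors' deposited table). In p53CryKO cells the change stayed positive on the coding and fragment scales (0.15 and 0.38) but no longer passed.

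Bok rose from lower levels on the authors' scaling, though at equal coding FPKM its value in p53CryKO cells turned to -0.083. The gene (ENSMUSG00000026278) lies on chromosome 1, 93685660 to 93695764, on the plus strand, with no overlapping gene. Its FPKM went from 17.1 to 42.5 in p53KO cells, 2.49-fold (1.32, implied SE 0.28), and from 31.4 to 60.1 in p53CryKO cells, 1.92-fold (0.94, implied SE 0.25). Both passed, with q = 0.000169 and 0.000161 in the authors' deposited table. At equal fragments the values were 0.53 and 0.15, and neither passed on either scale (0.31 in p53KO cells on the coding scale).

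Bak1, the effector that sits in the mitochondrial outer membrane, fell in both genotypes under every scaling run. It went from 45.6 to 11.3 FPKM in p53KO cells, 4.05-fold lower (-2.02, implied SE 0.33), and from 70.8 to 33.3 in p53CryKO cells, 2.12-fold lower (-1.09, implied SE 0.26). Both passed, with q = 0.000169 and 0.000161 in the authors' deposited table. The gene (ENSMUSG00000057789, chromosome 17, 27019810 to 27029009, minus strand) overlaps Ggnbp1 on the opposite strand, and the sources do not say whether counting used strand. Ggnbp1 was at 3.34 and 6.04 FPKM before and after UV in p53KO cells and at 3.55 and 10.6 in p53CryKO cells, and passed in neither table. The locus that the authors list for Bak1 runs well past both ends of the Bak1 gene. How fragments were divided at this locus is therefore uncertain, as for Bcl2l2, and its part in the Bak1 values was not tested.

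**Figure D2:**
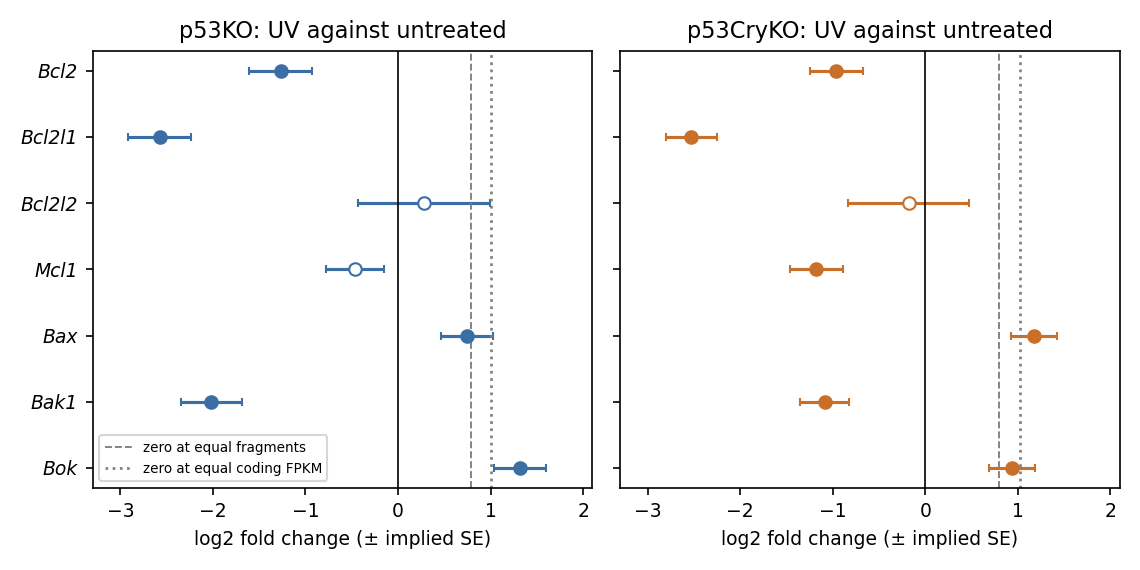
Log2 fold change of each gene after UV in p53KO (left) and p53CryKO cells (right), with the implied SE as bars; filled points had q of 0.05 or less, taken from the authors' deposited table. Dashed and dotted lines mark where 0 would lie at equal total fragments (0.78 and 0.79) and equal coding FPKM (1.01 and 1.02): Bcl2, Bcl2l1, Mcl1 and Bak1 lie left of 0 in both panels, while Bax and Bok lie near the shifted lines.

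Because short transcripts had higher fold changes than long ones in this series, each gene was set beside protein-coding genes of like exonic length (the summed length of its exons), in 10 classes of equal size. Bax, with 1.58 kb of exons, is in class 1, the shortest, whose median log2 fold change was 0.87 in p53KO and 0.93 in p53CryKO cells. At 0.75 and 1.17, Bax stood close to genes of its exonic length, above 46.0% and 60.8% of them. Among genes of like span on the genome (introns included) it was above 69.0% and 83.8%, and Mcl1, with the shortest span of the 7, above 25.3% and 15.5%. Bok (1.84 kb) and Bak1 (2.41 kb) share class 2, with medians of 0.38 and 0.43. Bok was above 84.4% and 74.6% of that class and Bak1 above only 6.97% and 15.6%. These 2 effector genes of like length thus lay on opposite sides of the class median. Bcl2l1 (4.59 kb, class 6, medians -0.30 and -0.28) was above 3.92% and 4.85%. Mcl1, in class 4, was above 38.8% and 21.2%, Bcl2l2, in class 5, above 67.8% and 50.5%, and Bcl2, in class 9, above 25.5% and 33.1%. With the median of the class subtracted, a setting added after the values were seen, Bok in p53KO cells was the only rise still called (0.93). Bax no longer passed in either genotype (-0.12 and 0.24), nor did Bcl2 in p53CryKO cells (-0.48), while Bcl2l1 (-2.27 and -2.24) and Bak1 (-2.40 and -1.52) remained called.

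**Figure D3:**
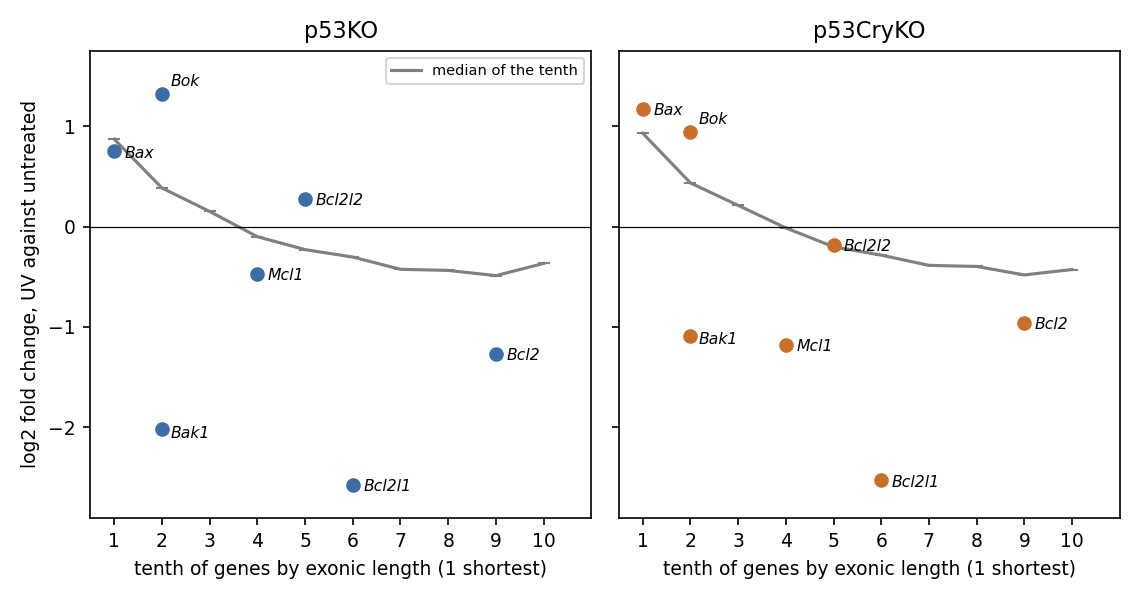
Log2 fold change after UV of the 7 genes against the class of protein-coding genes by exonic length (1 is shortest of 10), with the grey line at the median of each class, for p53KO (left) and p53CryKO cells (right). Bax lies near the line at 0.87 and 0.93, and Bcl2l1 and Bak1 lie far below it.

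A ratio of 2 transcripts within a group does not move with the scaling of that group, so effector and guardian were also compared directly, though it does move with the subtraction of length class medians. The ratio of Bax to Bcl2l1 rose from 2.25 to 22.5 in p53KO cells, a log2 change of 3.32 (implied SE 0.44), and from 1.98 to 25.8 in p53CryKO cells, 3.70 (implied SE 0.37). The ratio of Bax to Bcl2, a pair often quoted together in studies of apoptosis, went from 81.6 to 330 (2.01, implied SE 0.44) and from 52.1 to 229 (2.13, implied SE 0.38). With a pseudocount of 1 FPKM its log2 changes were 1.25 and 1.66. Bax to Mcl1 went from 2.33 to 5.42 (1.22, implied SE 0.42) and from 1.85 to 9.42 (2.35, implied SE 0.38). With the class medians subtracted from both genes, the change of Bax to Bcl2l1 was 2.15 in p53KO and 2.49 in p53CryKO cells, that of Bax to Bcl2 0.66 and 0.72, and that of Bax to Mcl1 0.25 and 1.41. The implied SE of a ratio treats the errors of its 2 genes as independent. These are transcript ratios and say nothing of the protein amounts.

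The ratios with Bak1 were less uniform. BAK is held mainly by MCL1 and BCL-XL. The ratio of Bak1 to Mcl1 went from 1.25 to 0.426 in p53KO cells (-1.55, implied SE 0.46) and from 1.65 to 1.76 in p53CryKO cells (0.09, implied SE 0.39). The ratio of Bak1 to Bcl2l1 went from 1.20 to 1.77 (0.56, implied SE 0.47) and from 1.77 to 4.81 (1.44, implied SE 0.38). Less the class medians, Bak1 to Mcl1 was at -2.03 in p53KO and turned to -0.36 in p53CryKO cells, and Bak1 to Bcl2l1 turned to -0.13 in p53KO and was at 0.72 in p53CryKO cells. Summed over the 3 effectors and 4 guardians, the ratio went from 1.78 to 4.66 in p53KO cells and from 1.99 to 8.33 in p53CryKO fibroblasts, a 2.61-fold and a 4.18-fold rise with no error attached. The effectors are in length classes 1 and 2, whose medians were higher than those of the guardians' classes, which run from 4 to 9. This summed ratio was not adjusted for length.

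**Figure D4:**
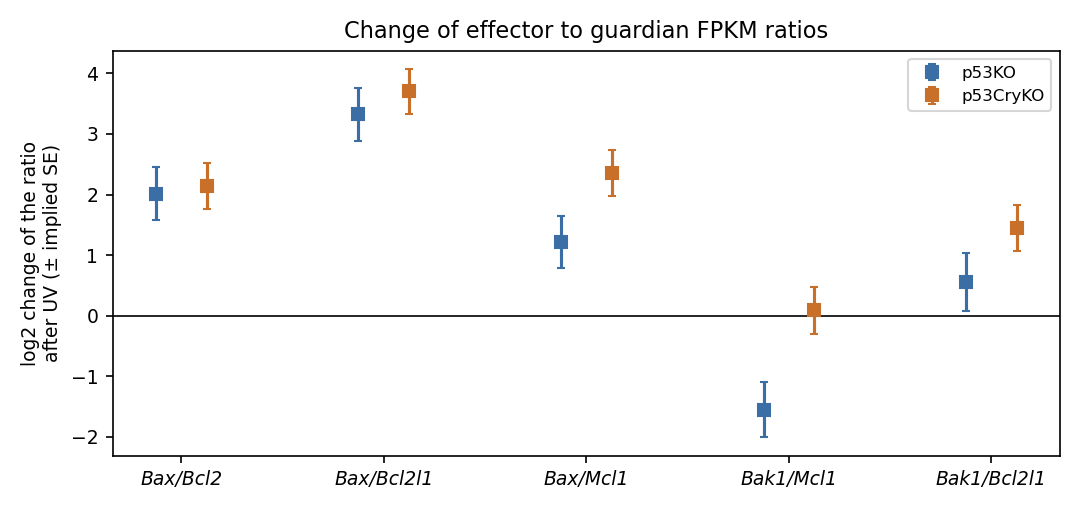
Log2 change after UV of 5 effector to guardian FPKM ratios, with the implied SE as bars, for p53KO (blue) and p53CryKO cells (orange). The 3 ratios with Bax lie above 1 in both genotypes (with length class medians subtracted they lie between 0.25 and 2.49), and Bak1/Mcl1 is -1.55 in p53KO and 0.09 in p53CryKO cells.

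The second question, which the series title raises, was whether the response to UV differed with cryptochrome loss. The difference of the 2 log2 fold changes was set against its implied SE in a two-sided normal test over 12300 genes, with Benjamini-Hochberg adjustment. Of the 7 genes 0 passed at an adjusted threshold of 0.05, beside 0.179% of all genes. Before adjustment 1 of the 7 was under 0.05, beside 3.03% of all genes. That gene was Bak1, with a difference (p53CryKO minus p53KO) of 0.93 (implied SE 0.42, 95% interval 0.11 to 1.76). Mcl1 had a difference of -0.71 (95% interval -1.54 to 0.13) and Bax one of 0.42 (-0.31 to 1.15). The difference was -0.38 for Bok (-1.12 to 0.36), 0.30 for Bcl2 (-0.57 to 1.18) and -0.46 for Bcl2l2 (-2.36 to 1.44). For Bcl2l1 it was 0.05, and the interval (-0.81 to 0.91) leaves room for a difference far larger than 0.05 in either direction. With an error at the median over genes (0.48), only a difference of 1.91 or more would have passed, which is beyond all 7. The members' own errors differed from that median. They ran from 0.37 for Bax to 0.45 for Bcl2, with 0.97 for Bcl2l2. The difference needed was therefore larger than 1.91 for Bcl2l2 and smaller for the others.

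In the ratios, the largest of the 5 differences between the genotypes was in Bak1 to Mcl1, at 1.64 on the log2 scale (95% interval 0.46 to 2.81). Bax to Mcl1 followed at 1.13 (0.02 to 2.24), Bak1 to Bcl2l1 at 0.88 (-0.31 to 2.08), Bax to Bcl2l1 at 0.38 (-0.75 to 1.51) and Bax to Bcl2 at 0.12 (-1.02 to 1.26). These intervals are not adjusted for the 5 pairs, which share members, and no p is given. They also treat the errors of 2 genes from the same libraries as independent, which was not tested. The uncertain division of fragments at the Bak1 locus bears on its ratios as well.

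Levels were also set across the tables, which the authors normalized separately, so no test was made. In untreated cells Bok was 1.84 times, Bak1 1.55 times and Bcl2 1.46 times as high in p53CryKO as in p53KO cells, beside 0.959 for the median of 11246 genes. The other 4 lay between 0.906 for Bcl2l2 and 1.17 for Mcl1. After UV the ratio was 2.96 for Bak1, higher than for 98.2% of those genes, 1.80 for Bcl2, 1.41 for Bok and 1.25 for Bax. Mcl1 at 0.717 and Bcl2l2 at 0.660 were lower in UV-treated p53CryKO cells.

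The transcripts whose profile over the 4 groups was most like that of each member were found by the root mean square difference of centred log2 FPKM among 8663 genes. With 4 pooled values per gene this is a description. For Bax they were Fth1, the ferritin heavy chain (0.02), and Bccip (0.04), and for Bok the proteasome subunit gene Psmd14 (0.03) and the channel gene Vdac2 (0.04). For Bcl2l1 they were Extl3 (0.03) and Ski (0.08), for Mcl1 the RNA polymerase subunit gene Polr1c (0.02) and Ppp1r10 (0.05), and for Bak1 Tprn (0.05) and Brms1 (0.09). For Bcl2 they were Bicc1 (0.06) and Snupn (0.06), and for Bcl2l2 Zfp207 (0.01) and Pxk (0.02). Bak1 had 2 genes within 0.1 of its profile and Bcl2l2 had 86.

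The rest of the pathway was read from 4 lists. Of 8 other BCL2 family genes 3 were tested, and 0 rose and 2 fell in p53KO cells and 1 rose and 2 fell in p53CryKO cells (median log2 fold changes -0.76 and -0.78). The guardian genes Bcl2a1a, Bcl2a1b and Bcl2a1d were listed at 0 in all 4 groups. Bcl2l12 fell from 10.6 to 4.57 FPKM in p53KO cells and from 7.28 to 3.66 in p53CryKO fibroblasts, and Bcl2l13, a mitophagy receptor, fell by 0.76 and 0.78 on the log2 scale. Bcl2l15 rose in p53CryKO cells from a very low level (0.162 to 0.718 FPKM, with 0.143 to 0.468 in p53KO cells). On the coding scale 0 of the 3 were higher and 2 lower in each genotype.

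Of 8 BH3-only genes 6 were tested. In p53KO cells 2 rose and 2 fell (median -0.21) and in p53CryKO cells 3 rose and 2 fell (0.02). Pmaip1, which encodes NOXA, the BH3-only protein that binds MCL1, had log2 fold changes of 2.17 and 1.57. Bid, whose cleaved product activates BAX and BAK, had -2.15 and -2.51. Bad, whose product binds BCL-XL and BCL-2, went from 32.7 to 59.4 and from 31.5 to 59.9 FPKM (0.86 and 0.93), which turned to -0.15 and -0.09 on the coding scale. On that scale 1 BH3-only gene was higher in p53KO cells and 0 in p53CryKO cells, and 2 were lower in each.

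Of 16 partners and regulators of the 7 proteins, 7 rose and 2 fell in p53KO cells (median 0.42) and 8 rose and 3 fell in p53CryKO cells (0.36). Becn1, whose product is bound by BCL-2, had log2 fold changes of 1.53 and 1.23. Vdac3, a channel of the outer membrane, had 1.34 and 1.08. Opa1, which shapes the inner membrane cristae that hold cytochrome c, had 1.29 and 0.82, and the latter was -0.20 on the coding scale. Fbxw7, part of a ubiquitin ligase that targets MCL1, fell in p53CryKO cells (2.23 to 0.293 FPKM), while its change in p53KO cells (2.19 to 0.343) missed the threshold. On the coding scale 0 of the 16 were higher in either genotype, and 6 and 7 were lower.

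Of 10 genes whose products leave through the pore or act after it, 2 rose and 2 fell in p53KO cells (median -0.13) and 2 rose and 3 fell in p53CryKO cells (0.06). Cycs, cytochrome c, rose in both (2.21 and 1.87), and it was higher on the coding scale as well (1.21 and 0.84). Casp9, the initiator caspase of the apoptosome, fell (-1.76 and -1.25). Apaf1, the apoptosome scaffold, fell in p53CryKO cells (5.57 to 2.04 FPKM), while its change in p53KO cells (4.05 to 2.47) missed the threshold. On the coding scale 1 of the 10 was higher and 6 lower in each genotype. The percentages of all tested genes given above are the background for these lists too.

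**Figure D5:**
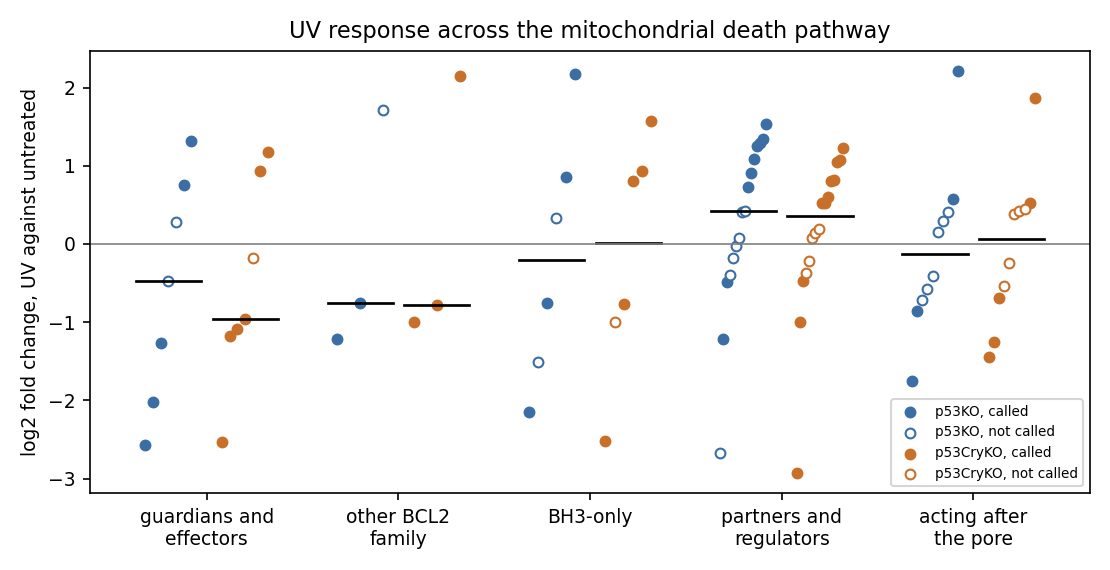
Log2 fold change after UV of the tested genes of 5 groups, the 7 guardians and effectors and 4 lists of other pathway genes, in p53KO (blue) and p53CryKO cells (orange). Filled points had q of 0.05 or less, taken from the authors' deposited table and black bars are medians, from -0.47 and -0.96 for the 7 genes to 0.42 and 0.36 for the partners and regulators.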

How the data were processed

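Poly(A)-selected RNA was sequenced as paired ends, per the labels' protocols. The submitters' processing notes name STAR 2.5.2, Trimmomatic 0.35 and FastQC 0.11.5 beside Cuffdiff and Cufflinks, with the build GRCm38, and their options are not given. Each genotype has a deposited table that holds, per the file headers, pooled FPKM per group, a signed test statistic (a score), a p-value and a q-value from the authors. A further table repeats genes tested in both genotypes and was not used.

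From these, log2 fold changes were recomputed without a pseudocount. Implied SEs, ratios, the normal test of the difference and length classes were computed with Python 3.11.15, numpy 2.4.6, scipy 1.17.1 and pandas 2.3.3, and figures used matplotlib 3.10.9. The code of that test was run on data simulated from the same normal errors. Such a run cannot show whether those errors fit these data. The difference was tested over genes tested in both tables with FPKM of 1 or more in a group. GENCODE M21 (GRCm38), which held 96.0% of the gene IDs, gave spans and summed exon lengths. All 7 members and the 4 other lists are named whatever their values, with up to 3 called genes of largest change per list and genotype, and 2 most alike genes per member. A called gene of the list that acts after the pore is counted but not reported here by name. The members and lists were chosen with earlier results of these data known. Fragment totals per sample are unknown, so no counting interval is given. Other settings were stricter thresholds, other scalings, filters, pseudocounts and errors.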

Additional observations from a re-analysis of the deposited data

How the results depend on the processing

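No paired analysis was possible because the tables hold 1 pooled value per group, and for the same reason no replicate could be left out. The 2 members called higher in each genotype were 1 and 1 with a log2 fold change of at least 1 in size, and 0 and 0 both at equal coding FPKM and at equal total fragments, which lower every value by construction. With the median of the same class of exonic length subtracted, which was chosen after seeing the data, they were 1 in p53KO and 0 in p53CryKO cells. The called values that reversed were those of Bax in p53KO cells (-0.26 at equal coding FPKM, -0.035 at equal fragments, -0.12 by length) and of Bok in p53CryKO cells (-0.083 at equal coding FPKM). Bcl2l2, called in neither genotype, also changed sign, to -0.73 at equal coding FPKM and -0.51 at equal fragments in p53KO cells and to 0.020 by length in p53CryKO cells. With a pseudocount of 1, the log2 change of Bax to Bcl2 was 1.25 in p53KO and 1.66 in p53CryKO cells, because Bcl2 is near 1 FPKM. By length, the log2 changes in p53KO and p53CryKO cells were 0.66 and 0.72 for Bax to Bcl2, 2.15 and 2.49 for Bax to Bcl2l1, 0.25 and 1.41 for Bax to Mcl1, -2.03 and -0.36 (reversed) for Bak1 to Mcl1, and -0.13 (reversed) and 0.72 for Bak1 to Bcl2l1. The counts of members called lower stayed within 1.5 times under all settings run. Under q of 0.01, q over genes with FPKM of 1 or more, centring on the median gene and z from the implied SE, no member's call changed. For the difference between genotypes 0 members were called under all settings run, while 22 genes were called over the whole test, 39 with errors from the p-value and 35 at q of 0.1. Depth per sample is unknown.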
